A study of Mus musculus with 18 samples.

Results

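Blood clots are built by a cascade that starts at tissue factor and ends in cross-linked fibrin, and they are dissolved again by plasmin. The 9 genes described here act at the start, the brakes and the end of that system: Plat and Plau, the 2 plasminogen activators, Plaur, the receptor that holds Plau at the cell surface, Serpinb2 and Serpine2, 2 serpins that inhibit such proteases, F3, tissue factor, Tfpi, its inhibitor, Thbd, thrombomodulin, and F13a1, the factor XIII A subunit that cross-links fibrin. They were chosen by name and role, with no threshold on measured values, from the 24419 gene symbols of the table. Earlier results of these data were known when they were chosen, and all 9 were found and tested. Their level was followed in the left ventricle of mice with acute myocardial infarction (AMI).

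RNA was sequenced from 18 C57BL/6 mice, described as male in the study's methods and 8 weeks old in the labels, in 6 groups of 3. One group was the control, called sham in the study, and the others were taken 10 min, 1 h, 6 h, 24 h and 72 h after the proximal left anterior descending coronary artery was tied off under sodium pentobarbital. After ligation the infarcted myocardium was taken, as whole tissue, so a change in the RNA of a cell type and a change in its number cannot be told apart. Levels are FPKM, counts of fragments normalised for transcript length and library size, so that they may be compared between genes. Differences are on the log2(FPKM + 1) scale, where changes of lowly expressed genes look smaller than they are, and "called" means a Benjamini-Hochberg adjusted p under 0.05 over all genes tested in a comparison with limma.

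Plasmin is cut from plasminogen by the tissue-type activator Plat and the urokinase-type activator Plau. Plat is known as a product of vascular endothelium that acts best on fibrin, and Plau, with its receptor Plaur, as a protease of migrating cells, leukocytes among them. Serpine2, also called protease nexin-1, inhibits thrombin and both activators, and Serpinb2, also called plasminogen activator inhibitor type 2, is induced in monocytes and macrophages. On the clotting side, F3 exposed to blood binds factor VII, Tfpi blocks that complex, and Thbd on endothelium turns thrombin into an activator of protein C. In the heart, F3 is carried by cardiomyocytes and perivascular cells.

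The genes lie apart in the mm10 genome, in the GENCODE release M21 annotation. Serpinb2 is at chr1:107511423-107535478 and Serpine2 at chr1:79794197-79861180, Plat at chr8:22757727-22782844, Plau at chr14:20836660-20843385, and Plaur at chr7:24462484-24475968. F3 is at chr3:121723537-121735048, Tfpi at chr2:84432855-84476775, Thbd at chr2:148404466-148408188 and F13a1 at chr13:36867178-37050244. Serpinb2 overlaps Serpinb10 on the same strand, whose FPKM was at most 0.621 in any mouse, and F13a1 overlaps 2 antisense genes, whose reads cannot be told apart from its own unless strand was used in the counting, which the sources used here do not state.

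A RefSeq promoter was at hand for 6 of the 9 genes (GRCm38.p6), and the 250 bases before the start site are shown for 4 of them: 2 genes called higher at 6 h (Plaur and Serpinb2), 1 called higher at 72 h and not before (Serpine2), and 1 called lower (F3). Each is printed on the strand of the gene, with the matches of the motifs searched in capitals. Plaur lies at chr7:24462233-24462482 (+), Serpinb2 at chr1:107511173-107511422 (+), Serpine2 at chr1:79858666-79858915 (-) and F3 at chr3:121723287-121723536 (+). The RefSeq start of Serpine2 lies inside the gene as GENCODE draws it.
Plaur: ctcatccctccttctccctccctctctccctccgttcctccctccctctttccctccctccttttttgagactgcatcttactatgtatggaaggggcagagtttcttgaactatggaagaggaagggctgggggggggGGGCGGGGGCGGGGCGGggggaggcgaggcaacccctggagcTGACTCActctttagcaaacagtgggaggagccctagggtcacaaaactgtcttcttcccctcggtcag
Serpinb2: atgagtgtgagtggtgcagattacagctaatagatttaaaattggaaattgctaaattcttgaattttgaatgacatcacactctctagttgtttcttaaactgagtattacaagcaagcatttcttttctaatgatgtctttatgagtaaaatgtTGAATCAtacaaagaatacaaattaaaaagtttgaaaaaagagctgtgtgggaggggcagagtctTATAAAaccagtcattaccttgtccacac
Serpine2: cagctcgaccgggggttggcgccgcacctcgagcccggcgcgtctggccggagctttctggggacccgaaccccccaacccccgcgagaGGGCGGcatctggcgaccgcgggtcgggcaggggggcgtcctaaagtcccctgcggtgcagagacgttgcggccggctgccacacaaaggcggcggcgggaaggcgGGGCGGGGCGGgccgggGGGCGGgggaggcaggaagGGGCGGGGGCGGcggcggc
F3: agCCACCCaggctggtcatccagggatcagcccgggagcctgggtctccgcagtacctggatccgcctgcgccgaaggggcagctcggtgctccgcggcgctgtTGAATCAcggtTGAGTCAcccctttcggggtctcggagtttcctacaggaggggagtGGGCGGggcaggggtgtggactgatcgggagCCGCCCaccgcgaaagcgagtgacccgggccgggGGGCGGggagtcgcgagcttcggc

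The AP-1 motif, searched as TGANTCA, was in 3 of the 6 windows, against 6.75% of 32851 windows of the same length over all genes. Plaur held 1 (TGACTCA, ending 63 bases before the start), Serpinb2 held 1 (TGAATCA) with a TATA box that ends 24 bases before the start, and F3 held 2 (TGAATCA and TGAGTCA). The Sp1 motif GGGCGG was in 32.7% of all windows, and Serpine2 held 6 matches, Plaur 3, F3 3 and Tfpi 1. F3 also held 1 KLF motif (CCACCC, 28.1% of windows), and F13a1 none of the motifs. Tfpi held 1 match of the TATA box letters (TATAAA, 12.4%), on the opposite strand and ending 122 bases before the start. No window held a CRE (TGACGTCA, 1.55%), an NF-kappaB motif (GGGANTTTC, 0.941%), an EGR motif (GCGTGGGCG, 0.536%), a hypoxia response element (ACGTG, 16.6%) or an E-box (CACGTG, 6.02%). Both strands were searched, the E-box contains the hypoxia element, and an EGR match may overlap an Sp1 match. A match is a description of these letters and not of binding.

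In the sham hearts the 9 genes spanned a wide range of levels. Tfpi was the highest, at 66.3 ± 4.99 FPKM (SD, n = 3), followed by Plat at 23.1 ± 2.13, Serpine2 at 22.2 ± 1.54, Thbd at 20.3 ± 0.706 and F13a1 at 18.4 ± 2.47. F3 stood at 9.04 ± 0.604, Plaur at 1.81 ± 0.0469 and Plau at 1.24 ± 0.136, while Serpinb2 was listed at 0.0384 in 1 sham mouse and at 0 in the other 2. The sham heart thus held far more message for Plat than for Plau, and more for Tfpi than for F3. Genes were tested if any mouse reached an FPKM of 1, and Serpinb2 passed only through mice at 6 h, 24 h and 72 h, the groups in which it was high. Its tests against sham are therefore not independent of the filter and are given as a description.

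**Figure D1:**
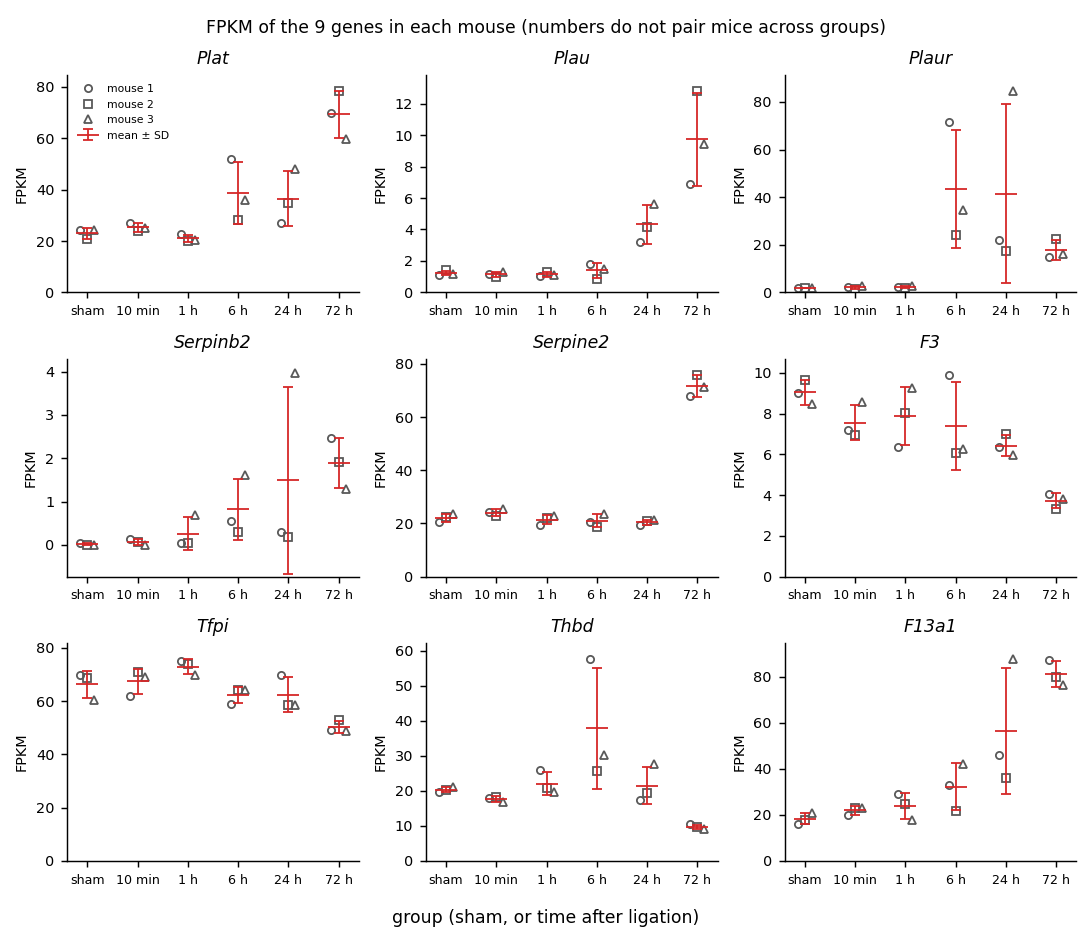
FPKM (y axis, linear) of the 9 genes in every mouse by group (x axis), with the 3 mice as open symbols and the group mean ± SD in red. Plaur rose from 1.81 in sham to 43.4 at 6 h, Serpine2 stayed between 18.8 and 25.3 in every mouse up to 24 h and stood at 67.8 to 75.8 at 72 h, and F3 and Thbd were lowest at 72 h.

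Little was seen in these genes within the first hour. At 10 min none of the 9 was called by limma, higher or lower, where 0.248% of all genes tested were called higher and 0.0978% lower, and 3 had an unadjusted p under 0.05. Those were Thbd, which fell short of the threshold at an adjusted p of 0.231 although its mice, at 18.0, 18.1 and 16.8 FPKM, all lay below the sham mice at 19.6, 20.2 and 20.99, F3 (adjusted p = 0.311) and F13a1 (adjusted p = 0.325). At 1 h none was called either, against 0.669% of genes higher and 0.0526% lower, and none had an unadjusted p under 0.05. Tfpi at 1 h, with 75.2, 73.9 and 69.9 FPKM, lay just above the sham mice at 69.7, 68.5 and 60.5, with a difference of 0.14 ± 0.07 (SE) and an adjusted p of 0.434.

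At 6 h the receptor Plaur stood out. It rose from 1.84, 1.83 and 1.75 FPKM in the sham mice to 71.5, 24.3 and 34.5, a difference of 3.84 ± 0.34 on the log2 scale (limma, adjusted p = 0.000747), and every 6 h mouse lay above every sham mouse. Higher calls also went to Plat, F13a1 and, within the limit given above, Serpinb2, so that 4 of the 9 were called higher, against 11.6% of all genes, and none lower, against 16.8%. Without the filter 1 of the 9, Plaur, was called higher, as were 1327 of all 18112 genes tested. A total of 5 had an unadjusted p under 0.05.

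Plat rose from 24.3, 20.6 and 24.3 FPKM to 51.9, 28.3 and 36.1 at 6 h, a difference of 0.69 ± 0.20 (adjusted p = 0.0416). Plau, the other activator, was at 1.81, 0.877 and 1.49 FPKM and overlapped the sham mice (difference 0.08 ± 0.15, adjusted p = 0.722). Of the 2 activators, Plat alone was called at this time, and a test of their difference is given with their ratio. Serpinb2 reached 0.555, 0.297 and 1.61 FPKM, all above the sham mice, with a difference of 0.78 ± 0.23 (adjusted p = 0.0436, and 0.0750 without the filter). F13a1 stood at 33.2, 21.6 and 41.9 FPKM against 16.2, 17.9 and 21.04 in sham, a difference of 0.74 ± 0.22 (adjusted p = 0.0457). Its lowest 6 h mouse lay next to its highest sham mouse.

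The calls of Plat, Serpinb2 and F13a1 were near the threshold. That of Serpinb2 was lost without the first 6 h mouse (adjusted p = 0.0614) or without any 1 sham mouse (0.107, 0.114 and 0.117), that of Plat without the third 6 h mouse (0.0688) or any 1 sham mouse (0.0970, 0.129 and 0.0977), and that of F13a1 without the first or the third 6 h mouse (0.104 and 0.0847) or any 1 sham mouse (0.142, 0.121 and 0.0808). Without a filter on low genes the adjusted p was 0.0739 for Plat and 0.0809 for F13a1, and with the same FPKM sum in every mouse it was 0.0516 for Plat and 0.0542 for F13a1. With all 18 mice in 1 limma fit the adjusted p of Serpinb2 was 0.147. The call of Plaur held without any 1 mouse (highest adjusted p 0.00641).

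Thbd, the thrombin receptor of endothelium, was above sham in all 3 mice at 6 h, at 57.5, 25.7 and 30.1 FPKM against 19.6, 20.2 and 20.99, but its difference of 0.78 ± 0.26 was not called (adjusted p = 0.0634), and it was called without the first 6 h mouse (difference 0.44, adjusted p = 0.0195) or the second (1.01, adjusted p = 0.0297), and with all 18 mice in 1 fit (adjusted p = 0.0125). The first 6 h mouse, the highest for Thbd, Plaur, Plat and Plau, was also the highest for F3, at 9.90 FPKM against 6.06 and 6.28. F3 was not called at 6 h (difference -0.28 ± 0.17, adjusted p = 0.244), and was called lower without that mouse (-0.48, adjusted p = 0.0152). Tfpi and Serpine2 were close to sham at 6 h, with differences of -0.08 ± 0.08 and -0.07 ± 0.11.

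Compared with 1 h directly, the 6 h mice were higher in Plaur (difference 3.60 ± 0.35, adjusted p = 0.00184) and Plat (0.81 ± 0.20, adjusted p = 0.0294), so that 2 members were called higher, against 9.32% of all genes, and none lower, against 11.2%, with 4 at an unadjusted p under 0.05. The call of Plat was lost without the third 6 h mouse (adjusted p = 0.0525) or any 1 of the 1 h mice (0.0696, 0.0993 and 0.0881).

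**Figure D2:**
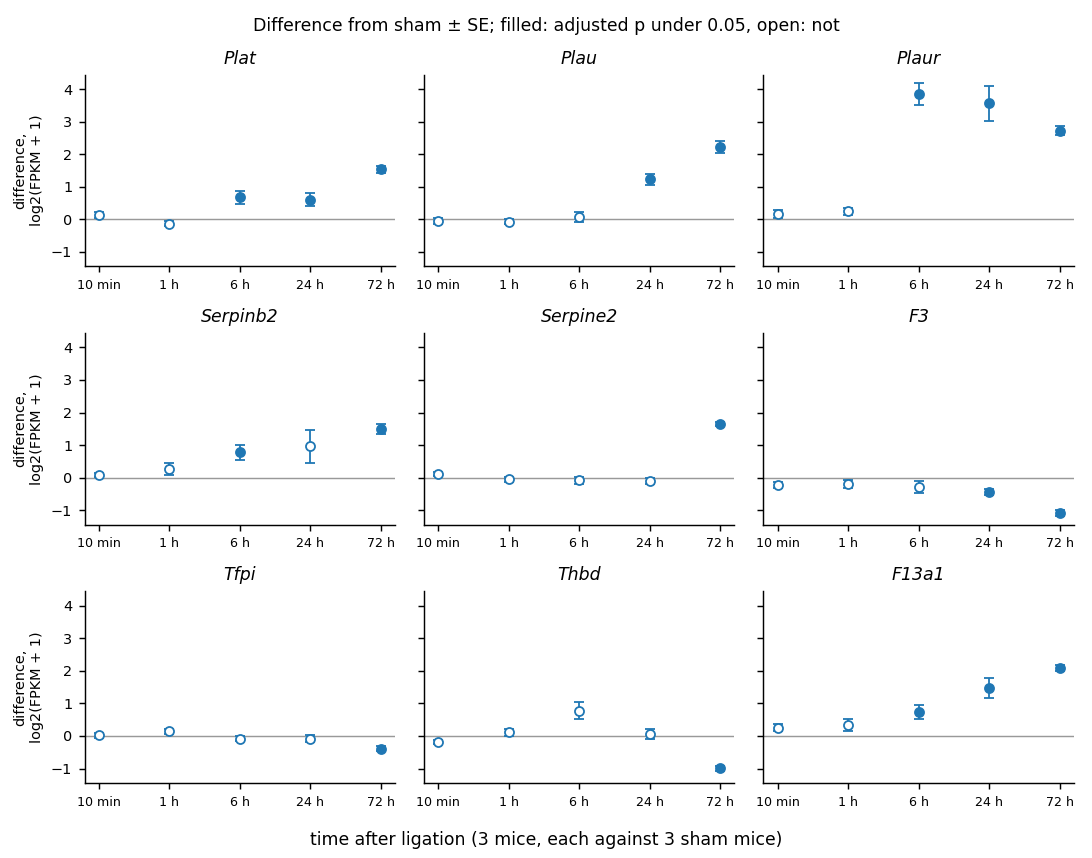
Difference from sham on the log2(FPKM + 1) scale ± SE (y axis) at 5 times after ligation (x axis), with filled points for an adjusted p under 0.05 (limma) and open points for the rest. Plaur had its highest point at 6 h (3.84), F13a1 climbed to 2.09 and Plau to 2.22 at 72 h, and F3, Tfpi and Thbd had their lowest points at 72 h.

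By 24 h, Plau had joined. Its mice stood at 3.20, 4.15 and 5.63 FPKM against 1.13, 1.39 and 1.19 in sham, a difference of 1.23 ± 0.17 (adjusted p = 0.00516), and no 24 h mouse overlapped the sham mice. F13a1 was at 46.2, 36.1 and 87.6 FPKM (difference 1.48 ± 0.30, adjusted p = 0.0126), Plaur at 22.2, 17.4 and 84.7 (3.56 ± 0.53, adjusted p = 0.00573) and Plat at 27.0, 34.7 and 48.0 (0.61 ± 0.20, adjusted p = 0.0491). The call of Plat was lost under 5 of 9 other settings, with an adjusted p between 0.0510 and 0.0901. F3 was the only member called lower, with 6.34, 6.98 and 5.99 FPKM against 8.998, 9.67 and 8.47 (difference -0.43 ± 0.10, adjusted p = 0.0172). In all, 4 of the 9 were called higher, against 26.2% of all genes, and 1 lower, against 11.4%.

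The third 24 h mouse was the highest of its group in Plaur, F13a1, Plat, Plau, Thbd and Serpinb2. Serpinb2 was at 3.98 FPKM in it and at 0.304 and 0.185 in the others, and was not called (difference 0.96 ± 0.51, adjusted p = 0.171), although all 3 lay above the sham mice. Without this mouse the difference of Plaur was 2.88 and remained called, that of Plat was 0.40 and was not (adjusted p = 0.0517). The call of Plat was also lost without the second 24 h mouse (0.0925) or any 1 sham mouse (0.111, 0.149 and 0.104), that of F3 without any 1 sham mouse (0.0702, 0.0771 and 0.0513), and that of F13a1 without the first or the second (0.0564 and 0.0507).

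Between 6 h and 24 h the step was called in Plau alone. Its FPKM of 1.81, 0.877 and 1.49 at 6 h went to 3.20, 4.15 and 5.63, a difference of 1.15 ± 0.22 (adjusted p = 0.0237), so that 1 member was called higher, against 12.5% of all genes, and none lower, against 1.94%, with 2 at an unadjusted p under 0.05. The call was lost without any 1 of the 6 h mice (adjusted p = 0.0517, 0.0868 and 0.0627) or without the second 24 h mouse (0.0839). The difference of Plau was 0.98 to 1.28 in these fits. Calls fell over all genes in them too, from 1664 higher and 258 lower to 192 and 37 without the first 6 h mouse. They fell to 1 and 1 without the second or the third, and to 27 and 5 without the second 24 h mouse. Thbd, back at 17.5, 19.4 and 27.5 FPKM at 24 h, overlapped the 6 h mice (difference -0.73 ± 0.30, adjusted p = 0.131).

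At 72 h all 9 genes were called, some higher and some lower. The plasminogen activators, their receptor, the 2 serpins and F13a1 were higher than sham, 6 of the 9 against 53.1% of all genes, and F3 with the 2 anticoagulants Tfpi and Thbd was lower, 3 of the 9 against 24.2%. With so many genes called at this time, the counts are near the background and the sizes are what describes these genes. None of the 9 overlapped between sham and 72 h, as in 55.1% of all genes on the higher side and 25.4% on the lower, so this too is near the background, and no call was lost without any 1 mouse.

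Serpine2, which had not been called at any earlier time, had risen. Its difference from sham at 24 h was -0.10 ± 0.09 (adjusted p = 0.377), and it was called lower there after median-of-ratios scaling (-0.25, adjusted p = 0.0426) or quantile normalization (-0.28, adjusted p = 0.0360). At 72 h its mice stood at 67.8, 75.8 and 71.2 FPKM, against 20.4, 22.6 and 23.4 in sham and 19.5, 20.9 and 21.2 at 24 h, a difference of 1.65 ± 0.07 from sham (adjusted p = 2.23e-07). Plat reached 69.9, 78.3 and 59.8 FPKM (difference 1.54 ± 0.11, adjusted p = 2.71e-06), and Plau 6.91, 12.8 and 9.44 (2.22 ± 0.18, adjusted p = 6.35e-06). Both activators were at their highest here, and neither overlapped any earlier group.

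Plaur was still raised at 15.0, 22.6 and 16.0 FPKM (difference 2.72 ± 0.14, adjusted p = 4.21e-07), and Serpinb2 was at 2.47, 1.91 and 1.295 (1.49 ± 0.14, adjusted p = 1.92e-05). F13a1 reached 87.2, 80.0 and 76.4 FPKM (2.09 ± 0.10, adjusted p = 2.90e-07), with less spread between mice than at 24 h. By group mean, Serpinb2 was the lowest of the 9 genes in all 6 groups.

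On the clotting side, F3 fell to 4.06, 3.34 and 3.79 FPKM, a difference of -1.09 ± 0.09 from sham (adjusted p = 6.46e-06). Thbd fell to 10.4, 9.55 and 9.15 FPKM (-0.99 ± 0.07, adjusted p = 3.10e-06), the lowest of its 6 groups. The fall of Tfpi was smaller, from 69.7, 68.5 and 60.5 FPKM to 49.3, 52.8 and 48.8 (-0.39 ± 0.07, adjusted p = 0.00127).

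The step from 24 h to 72 h was called higher in 3 members, against 29.7% of all genes, and lower in 2, against 13.5%. Serpine2 had a difference of 1.75 ± 0.09 (adjusted p = 3.78e-05), Plau of 1.00 ± 0.24 (0.0131) and Plat of 0.93 ± 0.21 (0.00976), while Thbd had -1.05 ± 0.17 (0.00249) and F3 -0.65 ± 0.11 (0.00320). None of these 5 genes overlapped between the 2 times, and neither did Tfpi, which was not called (-0.30 ± 0.11, adjusted p = 0.0552). Of all genes, 37.3% were apart on the higher side, near the share of the members, and 19.1% on the lower. The 5 genes were picked by their calls in this same comparison, so their lack of overlap is no further support. Without the third 24 h mouse, Serpinb2 (1.20, adjusted p = 0.00109) and F13a1 (0.97, adjusted p = 0.000570) were called higher as well and Tfpi lower (-0.34, adjusted p = 0.0324).

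Since some members peaked at 6 h, a comparison of 72 h with 6 h was added after the values had been seen. It called 5 members higher at 72 h, against 50.3% of all genes, and 4 lower, against 16.7%. Thbd went from 57.5, 25.7 and 30.1 FPKM to 10.4, 9.55 and 9.15 (difference -1.77 ± 0.26, adjusted p = 0.000466), so that the gene with all mice above sham at 6 h had all mice below it at 72 h. Plaur fell back (-1.12 ± 0.35, adjusted p = 0.0211), as did F3 (-0.80 ± 0.17, 0.00379) and Tfpi (-0.31 ± 0.09, 0.0156).

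Higher at 72 h than at 6 h were Plau (2.15 ± 0.22, adjusted p = 6.97e-05), Serpine2 (1.72 ± 0.11, 5.08e-06), F13a1 (1.35 ± 0.21, 0.000640), Plat (0.86 ± 0.21, 0.00665) and Serpinb2 (0.71 ± 0.26, 0.0412). The last overlapped between the times, and its call was lost without the first or second mouse of either group (adjusted p = 0.131 and 0.0972 for 72 h, 0.0901 and 0.123 for 6 h), and under 5 of 8 other settings (highest adjusted p 0.541). After median-of-ratios scaling the difference of Plat was 0.45 and was not called (adjusted p = 0.0948). That of Plaur was lost without the first or the third 72 h mouse (0.0692 and 0.0624) and that of Tfpi without the third (0.0683). Without a filter the adjusted p of Plaur was 0.0514, and with the same FPKM sum that of Tfpi was 0.0691.

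Ordered by group mean, the 9 genes followed different courses. Plau was flat from sham to 6 h, with neighbouring groups that overlapped, and then took 2 steps without overlap, to 24 h and to 72 h. Serpine2 had 5 groups of which each overlapped the next, and 1, at 72 h, that stood alone, and Plat had 72 h alone above the rest. Plaur had sham, 10 min and 1 h below a gap, and 72 h, 24 h and 6 h above it, each overlapping the next. In F13a1 and Serpinb2 the means rose at each time, and every neighbouring pair of groups overlapped. F3 and Tfpi had only 72 h apart from the next group, below it, and in Thbd 72 h was apart from 10 min, which in turn was apart from sham.

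The balance within the 2 pairs of partners was followed as a ratio of FPKM in each mouse. Plau to Plat was 0.0545 ± 0.0115 in sham (SD, n = 3), 0.0358 ± 0.00520 at 6 h, 0.119 ± 0.00112 at 24 h and 0.1402 ± 0.0359 at 72 h. It lay below every sham mouse at 6 h and above every sham mouse at 24 h and 72 h, where the geometric mean was 2.21 and 2.55 times that of sham. The 3 mice at 24 h, at 0.119, 0.120 and 0.117, were close together although their Plau and Plat levels were not. An exact two-sided permutation test gave p = 0.1 at these 3 times, the smallest that 3 mice against 3 allow, with 0.3 at 10 min and 1.0 at 1 h, and the adjusted p over the 10 ratio tests was 0.167 at best.

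F3 to Tfpi was 0.137 ± 0.00662 in sham and 0.0745 ± 0.01001 at 72 h, 0.542 times sham by the geometric mean, with all 3 mice at 72 h below all sham mice (exact permutation p = 0.1). It was also below every sham mouse at 10 min (0.112 ± 0.0135) and at 24 h (0.104 ± 0.0143), with the same p. At 1 h (0.109 ± 0.0238, exact permutation p = 0.2) and 6 h (0.120 ± 0.0416, p = 0.4 in the exact test) it overlapped sham. Plat remained above Plau, and Tfpi above F3, in every mouse.

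**Figure D3:**
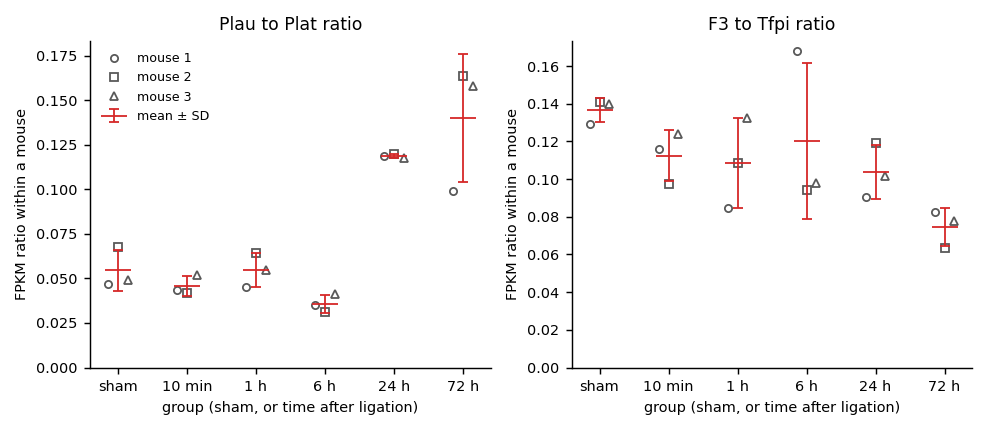
FPKM of Plau over that of Plat (left) and of F3 over that of Tfpi (right) within each mouse (y axes, linear from 0) by group (x axis), with mice as open symbols and mean ± SD in red. The Plau to Plat ratio is lowest at 6 h (0.0358) and highest at 72 h (0.1402), and the F3 to Tfpi ratio is lowest at 72 h (0.0745).

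Markers of other cell types moved over the same hours, and their part in the results above was not tested. The summed FPKM of 5 neutrophil markers of 6 listed (Ly6g was not used here) was 2.32 to 4.99 in sham, 996.6, 115.7 and 374.7 in the 6 h mice, 209.4, 42.6 and 964.6 in the 24 h mice and 49.6 to 60.2 at 72 h. Plaur was highest in the same mouse as this sum at both 6 h and 24 h, and so were Plat, Plau, Thbd and F3 at 6 h and Plat, Plau, Thbd, F13a1, Serpinb2 and Serpine2 at 24 h. All 5 of these markers were called higher at 6 h. This list, and that of monocyte and macrophage markers, include genes that reached an FPKM of 1 in no sham mouse. Such genes passed the filter only through mice after ligation, so their calls against sham are not independent of it.

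The 8 monocyte and macrophage markers summed to 196.9 to 226.3 in sham and 157.8 to 248.3 at 6 h, where 4 of the 8 were called higher and 1 lower, beside Plaur, Plat, F13a1 and Serpinb2. They summed to 508.7 to 698.2 at 24 h and 3534 to 4644 at 72 h, and all 8 were called higher at 24 h and 72 h, as were F13a1, Plau and Plaur. The sum of the 6 platelet markers went from 17.3 to 20.6 in sham to 45.9 to 118.6 at 24 h, highest in the third mouse, and 191.1 to 209.5 at 72 h, with 5 of 6 called. The median difference of this list was 1.07 at 72 h against sham. At 72 h against 24 h it was 0.06, with 1 of the 6 called higher, so the later rise of the sum was not that of the typical marker. F13a1 is known in platelets and in monocytes and macrophages. Resident macrophage markers summed to 45.3 to 52.4 in sham and 55.4 to 90.6 at 72 h, with 1 of 4 called higher and 2 lower.

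The 6 fibroblast markers summed to between 175.4 and 313.3 up to 24 h, with 3 called lower at 6 h, and 2 called higher and 1 lower at 24 h. They summed to 2124 to 2860 at 72 h, all 6 called higher, at the one time at which Serpine2 was called. The 6 endothelial markers, a cell type known for Thbd, Tfpi and Plat, summed to 515.5 to 560.6 in sham and 439.5 to 546.1 at 72 h, with 3 called lower and none higher, and Plat went up while Thbd and Tfpi went down. Cardiomyocyte markers fell from between 39561 and 41295 in sham to between 16694 and 20023 at 72 h, all 6 called lower, beside F3. Mural markers summed to 256.0 to 290.1 in sham and 332.2 to 441.3 at 72 h, but 3 of the 6 were called lower and 2 higher, with a median difference of -0.40, and the sum was carried by Acta2, smooth muscle actin, at 71.3 ± 14.9 FPKM in sham and 231.6 ± 35.4 at 72 h. Mesothelial markers summed to 7.05 to 17.2 and 23.3 to 72.1, with 3 of 5 called higher, and the erythroid ones ranged from 28.8 to 2384 over all mice. No marker was at 0 in all 3 mice of a group, and the cardiomyocyte sum was by far the highest in sham.

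**Figure D4:**
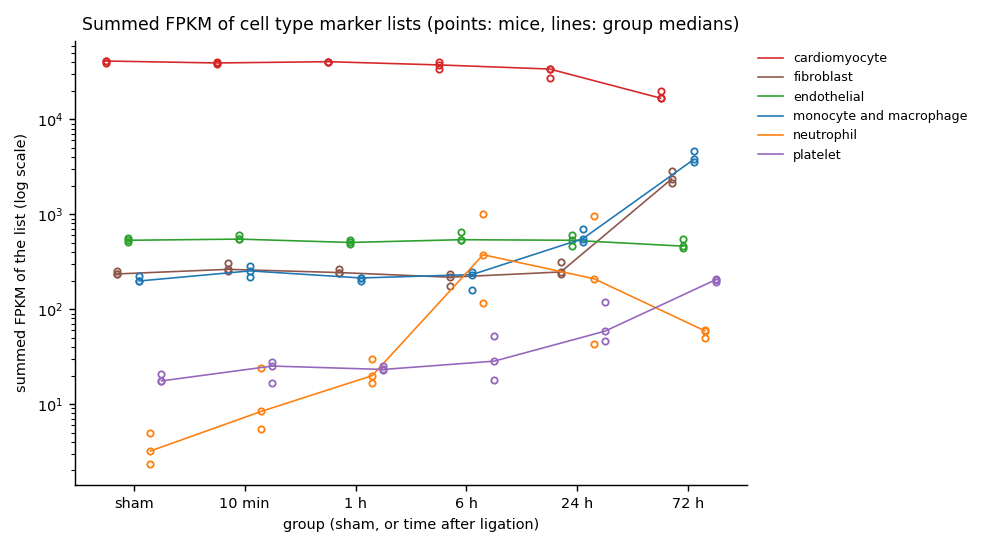
Summed FPKM of 6 marker lists (y axis, log scale) by group (x axis), with 1 point per mouse and lines through the group medians. Neutrophil markers are highest at 6 h and in 1 mouse at 24 h, while fibroblast and monocyte and macrophage markers climb at 72 h and cardiomyocyte markers fall.

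The rest of the plasminogen and clotting system gives the setting. Of 42 further genes listed for it, all were in the table and 19 passed the filter. None was called at 10 min, and 1 was higher and 0 lower at 1 h. At 6 h, 6 of the 19 were called higher and 3 lower, against 11.6% and 16.8% of all genes. At 24 h, 8 were higher and 2 lower, against 26.2% and 11.4%, and at 72 h 17 were higher and 2 lower, against 53.1% and 24.2%. Their median difference from sham was 0.21 at 6 h, 0.47 at 24 h and 1.20 at 72 h, beside -0.08, 0.13 and 0.29 over all genes tested, and that of the 9 members was 0.69, 0.61 and 1.54. The members were counted apart. Genes such as F10, F7 and Tfpi2 reached an FPKM of 1 in no sham mouse and passed the filter only through mice after ligation. The counts and medians of the 19 are therefore not independent of the filter.

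Among the plasminogen genes, 8 tested, Anxa2, a subunit of a plasminogen-binding complex at the cell surface, rose from 47.7 ± 3.98 FPKM (SD, n = 3) in sham to 92.0 ± 25.3 at 6 h and 383.0 ± 29.4 at 72 h (difference 2.98 ± 0.09, adjusted p = 2.61e-08). Lrp1, the receptor that clears activators bound to their inhibitors, rose from 76.1 ± 4.58 to 312.3 ± 57.0 at 72 h (2.01 ± 0.12, adjusted p = 1.11e-06). Plgrkt, a plasminogen receptor, fell at 6 h, from 7.70 ± 0.513 to 5.46 ± 0.367 (-0.43 ± 0.10, adjusted p = 0.0171).

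Of the clotting factors, 5 tested, F10 and F7, which stand next to F3 in the cascade, were near absent in sham. No sham mouse reached an FPKM of 1 in either, so both passed the filter only through mice after ligation. Their tests against sham are therefore not independent of the filter and are given as a description. F10 was at 0.0429 ± 0.0520 FPKM in sham, at 1.59 ± 0.856 at 6 h (difference 1.26 ± 0.23, adjusted p = 0.00892), at 16.8 ± 19.4 at 24 h (3.48 ± 0.71, adjusted p = 0.0127) and at 4.96 ± 1.25 at 72 h (2.496 ± 0.14, adjusted p = 7.90e-07). The SD of F10 at 24 h exceeded its mean. Its 72 h mice overlapped the 24 h mice and the step was not called (-0.98 ± 0.71, limma adjusted p = 0.295). F7 went from 0.109 ± 0.0583 to 11.02 ± 1.72 at 72 h (3.43 ± 0.11, adjusted p = 4.45e-08), while F3 fell. All 5 tested clotting genes, F10 and F7 within that limit, were called higher at 72 h.

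The 3 tested anticoagulants outside the members moved the other way from Tfpi and Thbd at 72 h. Procr, the endothelial protein C receptor and partner of Thbd, rose from 1.02 ± 0.163 FPKM to 5.23 ± 2.02 at 6 h (1.58 ± 0.22, adjusted p = 0.00333) and 5.60 ± 0.376 at 72 h (1.71 ± 0.09, adjusted p = 6.28e-07). Tfpi2, a relative of Tfpi, went from 0.386 ± 0.0539 to 0.953 ± 0.359 at 6 h (0.48 ± 0.14, adjusted p = 0.0366) and to 2.98 ± 0.239 at 72 h (1.52 ± 0.09, adjusted p = 8.56e-07). No sham mouse reached an FPKM of 1 in Tfpi2, which passed the filter only through mice after ligation. Its tests against sham are given as a description, and within that limit all 3 were called higher at both times.

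The thrombin receptor F2r was at 15.6 ± 2.01 FPKM in sham and 37.1 ± 4.82 at 72 h (1.20 ± 0.11, adjusted p = 1.72e-05). F2rl3, the other thrombin-cut receptor named here, was lower at 6 h (0.238 ± 0.0862 against 0.791 ± 0.172 FPKM, -0.53 ± 0.10, adjusted p = 0.0102) and higher at 72 h (1.81 ± 0.204, 0.65 ± 0.10, adjusted p = 0.000422). All 3 tested receptors of this family were called higher at 72 h. In F2rl3 and the third receptor no sham mouse reached an FPKM of 1, and both passed the filter only through mice after ligation. Their tests against sham are therefore not independent of the filter and are given as a description.

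The genes whose log2(FPKM + 1) over the 18 mice was most like each member, by Pearson r, are given as a description, since the mice share their groups and libraries. Plau was nearest to Ssr1 (r = 0.992) and Stt3a (0.991), and Plat to Etv6 (0.975) and Ugdh (0.974). Plaur went with Sh2d5 (0.989) and the chemokine Cxcl5 (0.982), which were also highest at 6 h or 24 h. Serpine2 went with Nusap1 (0.987), a spindle protein, and Sprr2a2 (0.986), whose level is uncertain because it belongs to a family of near-identical copies. Serpinb2 was nearest to Ptges (0.936), an enzyme of prostaglandin E synthesis, and Slc7a2 (0.913), F13a1 to Cd47 (0.970) and Dnajc3 (0.968), and Thbd to Kdm6b (0.970) and Plxna2 (0.962). F3 was nearest to Abcb4 (0.947) and Casz1 (0.927), and Tfpi to Pcnt (0.944) and Iars2 (0.940).

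Between members, r over the 18 mice was highest for Plau with F13a1 (0.903) and Plat with F13a1 (0.872), and lowest for Plat with Tfpi (-0.899). Plau and its receptor Plaur had r = 0.557, and F3 and Tfpi 0.684. Values of this kind follow the groups and carry no test.

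FPKM of all genes summed to between 542418 and 600467 per mouse, and relative depth, read from the lowest FPKM, was 0.813 to 1.32 times that of the first sham mouse. The scale of a mouse matters at the late times. The median difference of all genes from sham at 72 h was 0.29 as deposited, 0.03 after median-of-ratios scaling and -0.12 after quantile normalization, and calls split into 7081 higher and 3226 lower, 5208 and 4792, and 4278 and 5794. At 24 h the split was 3496 and 1516 as deposited, 2460 and 2426, and 2118 and 2736. At 6 h it was 1543 and 2233 as deposited and 1922 and 1586 after median-of-ratios scaling. At 10 min, 33 higher and 13 lower as deposited became 28 and 20 after median-of-ratios scaling and 35 and 24 after quantile normalization. Of the later steps, 6 h against 1 h went from 1241 higher and 1490 lower to 1523 and 1169 after median-of-ratios scaling. For 24 h against 6 h, 1664 and 258 became 403 and 368, then 371 and 277 after quantile normalization. For 72 h against 24 h, 3963 and 1799 became 3159 and 2693, then 2775 and 3424, and for 72 h against 6 h, 6712 and 2229 became 4271 and 4045, then 3798 and 4663. All 9 members kept their direction and their call at 72 h against sham under each of these, and Tfpi, the smallest, lay between -0.70 and -0.31 over all alternatives tried.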

How the data were processed

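Libraries were made by the authors from poly-A RNA. Whether strand was used in counting is not given in the sources used here. Per the labels and the study's methods, reads were trimmed with cutadapt 1.18, mapped to mm10 with HISAT2 2.1.0 and quantified with StringTie 1.3.4d. The annotation is not given in the sources used here. The deposited table holds FPKM of 24419 symbols in 18 mice, used as deposited. It holds no counts, so precision comes from the spread of 3 mice a group, and groups were taken from the sample titles.

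Symbols that reached an FPKM of 1 in any mouse, 13333 in number, were fitted on the log2(FPKM + 1) scale by limma 3.58.1 in R 4.3.3 (lmFit, then eBayes with its trend option), each comparison on its own 6 mice, without genes that had no spread in them. Two-sided p-values were adjusted by Benjamini-Hochberg across every gene tested in the comparison. Ratios of 2 FPKM were compared by an exact permutation test in Python 3.11.15 with numpy 2.4.6. Steps were tested on simulated data. Replicate numbers were not taken as pairs. Motifs were searched in the 250 bases before RefSeq starts, taking the start nearest to that of GENCODE where there were 2. Protein sequences were not used here.

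All 9 members are named. Of the other genes of the pathway, the 2 with the largest change in each subgroup among those called at 6 h, and likewise at 72 h, are named, except that 1 plasminogen gene, among the 2 at both times, is not reported here by name, and the next in size was taken in its place. For each member the 2 genes with the highest r were named, leaving out predicted genes. Members, lists and marker lists were chosen with earlier results of these data known. Alternatives were a pseudocount of 0.1, no filter, a mean FPKM of at least 1, the same FPKM sum, median-of-ratios scaling, quantile normalization, 1 fit of all 18 mice, the replicate number as a block, no variance trend, the study's thresholds (unadjusted p under 0.05 and a ratio over 2) and leaving out each mouse.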

Additional observations from a re-analysis of the deposited data

Results flagged for a closer look

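A step between 2 times was called in 2 members from 1 h to 6 h, in 1 from 6 h to 24 h and in 5 from 24 h to 72 h, which shows that their differences from sham were not the same at both times (limma, adjusted p under 0.05). Plat (0.81) and Plaur (3.60) stepped up from 1 h to 6 h on the log2(FPKM + 1) scale, and Plau (1.15) from 6 h to 24 h. From 24 h to 72 h, Serpine2 (1.75), Plau (1.00) and Plat (0.93) stepped up, and Thbd (-1.05) and F3 (-0.65) down.

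In the comparison of 72 h with 6 h, added after the values had been seen, the differences were 2.15 for Plau, 1.72 for Serpine2, 1.35 for F13a1, 0.86 for Plat, 0.71 for Serpinb2, -0.31 for Tfpi, -0.80 for F3, -1.12 for Plaur and -1.77 for Thbd.

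In 3 patterns, all mice of 1 time lay on 1 side of sham and all mice of another time on the opposite side. The share of all genes with such a pattern was not computed. With 3 mice a group such separation can arise by chance, so the count is a description only. Thbd was above every sham mouse at 6 h (0.78) and below every one at 72 h, and the test of 72 h against 6 h called this difference. Thbd at 6 h (0.78) against 10 min, where it was below every sham mouse, was not tested, and neither was Tfpi, above every sham mouse at 1 h (0.14) and below at 72 h. Groups of 3 are too small for the check of single outlying mice.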

How the results depend on the processing

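No result changed direction among calls. At 72 h against sham, 6 members were called higher and 3 lower, with 6 to 6 and 3 to 3 when leaving out 1 mouse, and the other settings gave the same counts, except that 5 were higher with a mean FPKM of at least 1, which leaves Serpinb2 untested, and 2 lower by the study's thresholds. Without a filter, the 6 h calls higher than sham went from 4 to 1, and those higher than 1 h from 2 to 1. With the same FPKM sum they were 2 against sham, and 1 member was lower than at 1 h. Over all genes, 1327 of 18112 were higher than sham without a filter and 964 of 18080 higher than 1 h. With the same FPKM sum 1420 of 13321 were higher than sham and 1867 of 13321 lower than at 1 h. By the study's thresholds, which need a ratio over 2, the calls were 2 higher at 6 h, 0 lower at 24 h, 1 higher at 6 h against 1 h, 1 lower at 72 h against 24 h and 2 lower at 72 h against 6 h. Over all genes they were 901 of 13321, 375 of 13327, 784 of 13321, 435 of 13330 and 940 of 13331, in that order. Median-of-ratios scaling gave 2 members lower at 24 h and 3 higher at 72 h against 6 h, quantile normalization 2 lower at 24 h, and 1 fit of all 18 mice 2 higher and 1 lower at 24 h against 6 h. Over all genes, median-of-ratios scaling gave 2426 of 13327 lower and 4271 of 13331 higher, and quantile normalization 2736 of 13332 lower. The member counts under these 2 settings are near those shares. The fit of all 18 mice gave 4848 of 13333 genes higher and 1002 lower. The log2 F3 to Tfpi ratio at 72 h was -1.35 after quantile normalization and -0.88 as deposited. The cause of these moves was not tested.

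Leaving out 1 mouse at a time gave 1 to 5 members higher and 0 to 1 lower at 6 h, 2 to 4 and 0 to 1 at 24 h, 1 to 2 higher at 6 h against 1 h, 0 to 1 higher at 24 h against 6 h, 3 to 5 and 2 to 3 at 72 h against 24 h, and 4 to 5 and 2 to 4 at 72 h against 6 h. No member was called at 10 min or 1 h in this way. For 24 h against 6 h, calls over all genes also fell, to 1 higher and 1 lower without the second or the third 6 h mouse.

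Mice with the same replicate number did not deviate together (r of their deviations from -0.33 to 0.41, no comparison with all 3 above 0.1, and at most 2 of 3 numbers correlating best with themselves). With the replicate number as a block, 4 members were called higher than sham at 6 h and 4 at 24 h. At 72 h, 6 were higher and 3 lower. For 6 h against 1 h, 3 were higher, and for 24 h against 6 h, 0 were. Over all genes, this fit called 1262 higher than sham among 13321 tested for 6 h, and 2971 among 13327 for 24 h. The 72 h comparison with sham called 7024 higher and 3191 lower among 13329. Against 1 h, the 6 h mice had 933 genes called higher among 13321. From 6 h to 24 h only 1 gene was called higher and 0 lower among 13328. The count of 0 members there therefore says nothing about these genes.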
